A study of Mus musculus with 2 samples.

Results

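The genes described here are the chaperones and folding enzymes of the endoplasmic reticulum (ER) and the genes of the unfolded protein response (UPR). They were chosen by name, as the rows of the deposited gene table whose symbol is on a list of 34 genes. Of these, 30 were measured among 12557 genes in all, and Ern1, Eif2ak3, Edem1 and Derl3 were not measured. RNA sequencing was carried out on mouse cells of the embryonic sinoatrial node, the pacemaker tissue of the heart, with 1 library from Isl1 mutant embryos and 1 from control embryos. Both groups were of the ICR strain and carried Hcn4-CreERT2, a recombinase that tamoxifen switches on in cells with an active Hcn4 gene, and Rosa-tdTomato, a red reporter. The mutant embryos had floxed Isl1 (Isl1f/f) and the controls had intact Isl1 (Isl1+/+). Tamoxifen was given to both groups at E10.5 (E, embryonic day), and nodes were taken 36 hours later, at E12 to E12.5. Nodes of 1 genotype were pooled, endothelial cells were removed with CD31 beads and red cells were sorted, so each library is 1 pool. How many embryos it holds was not given in the sources used here.

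Proteins that are secreted or sit in membranes enter the ER through the translocon, fold with the help of chaperones and disulfide enzymes, and are sent back to the cytosol for degradation if they fail to fold. When unfolded proteins build up, the sensors IRE1 (the product of Ern1), PERK (Eif2ak3) and ATF6 start the UPR, which slows translation and induces genes of chaperones and of degradation. IRE1 acts by splicing the Xbp1 messenger RNA, which gene-level values do not show. In heart muscle the same membrane system also stores the calcium released at each beat.

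The values were read as RPKM (reads scaled to exon length and library size). Totals of 110117186 control reads and 119018888 mutant reads were inferred from the steps of the values. Because each genotype has a single library, replicate error could not be measured and no test was made. Intervals beside a ratio are exact 95% intervals for counting error only, and read mates and PCR copies, which are not independent, make them too narrow. Isl1, the targeted gene, (chromosome 13, 117088478 to 117099896, mm9) had 7.65 RPKM in control cells and 1.52 RPKM in mutant cells, 5.02-fold lower (interval 4.53 to 5.56). Of the node markers Isl1, Shox2, Tbx3, Tbx18, Hcn4 and Cacna1d, 6 of 6 were lower in the mutant library, led by Shox2 at 14.8 and 8.64 RPKM. Hcn4, which drives the recombinase, had 1.99 and 0.541 RPKM and was singled out after its values were seen. Each of 7 heart muscle markers was measured, led by Actc1 at 5374 and 8539 RPKM.

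Promoter sequence is shown first, because a short element that many of these genes share is the known point of contact of the UPR with them. The ER stress response element (ERSE) reads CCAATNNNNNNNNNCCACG, and its variant ERSE-II reads ATTGGNCCACG. They share the CCACG end, which ATF6 is known to bind beside the factor NF-Y. Both strands were searched in RefSeq promoters of GRCm38.p6 that run from 250 bases before to 50 bases after a gene's start. Of the 34 genes, 28 matched a promoter entry, Ero1l and Selk under their RefSeq names Ero1a and Selenok, and Hyou1, Atf6, Manf, Derl1, Sec61a1 and Ssr2 did not. ERSE was found in 9 of the 28 (32.1%), namely Hspa5, Hsp90b1, Calr, Canx, Pdia6, Dnajc3, Creld2, Syvn1 and Derl3, beside 0.137% of all 27025 genes with an entry. ERSE-II was found in Herpud1 and Dnajb11, beside 0.0444% of all genes, and no member's promoter held both elements. The stretches below, before the start of 6 of these genes and 5′ to 3′ on the strand of the gene, carry the fixed letters of each match in capitals. The first 4 genes had higher values in the mutant library as deposited and the last 2 did not. The capitals read CGTGG and ATTGG where the element lies on the opposite strand.
Hspa5 (chr2:34772010-34772058, + strand): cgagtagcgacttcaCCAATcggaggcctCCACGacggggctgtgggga
Hsp90b1 (chr10:86705518-86705671, − strand): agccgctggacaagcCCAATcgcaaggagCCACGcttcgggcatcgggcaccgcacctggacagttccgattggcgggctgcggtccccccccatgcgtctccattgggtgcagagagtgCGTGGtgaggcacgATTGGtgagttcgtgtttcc
Calr (chr8:84847060-84847108, − strand): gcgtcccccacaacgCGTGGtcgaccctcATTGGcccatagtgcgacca
Herpud1 (chr8:94386362-94386402, + strand): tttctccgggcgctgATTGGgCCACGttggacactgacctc
Canx (chr11:50325785-50325833, − strand): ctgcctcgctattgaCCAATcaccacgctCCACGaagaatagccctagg
Syvn1 (chr19:6046517-6046565, + strand): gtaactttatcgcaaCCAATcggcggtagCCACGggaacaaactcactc

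The ERSE of Hspa5 begins 65 bases before the gene's start, that of Calr 162 bases and that of Syvn1 44 bases before it. Hsp90b1 has an ERSE on each strand, beginning 212 and 107 bases before the start. In Dnajb11 the ERSE-II match lies 8 to 18 bases after the start, inside the transcript. The ATF6 and XBP1 site TGACGTGG was in 1 of the 28 promoters, that of Txndc5, beside 0.714% of all genes. The ATF4 element TGATGNAA was in Herpud1 and Txndc5, beside 4.51% of all genes.

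Across the ER genes the libraries differed little. Of the 30 measured genes, 16 were higher in the mutant library and 14 lower, and 29 of 30 lay within 1.5-fold by the RPKM ratio, beside 65.4% of all genes and 80.7% of those that reach 5 RPKM. As deposited, higher values were seen for lumenal chaperones and their partners such as Hspa5, Hsp90b1, Calr, Manf and Sdf2l1. Lower ones were seen for Hyou1, also a chaperone gene, and for Sel1l, Atf6 and the translocon subunits. The translocon genes Ssr1, Sec61a1 and Sec61b changed direction in other scalings. In a bulk library, fewer cells of a type and less RNA per cell cannot be told apart. The share with a higher value was 53.3% of the measured members, 32.9% of all genes and 38.1% of those that reach 5 RPKM. Over all genes this share rises with level, and the members are more abundant than most genes. At a geometric mean of 20 RPKM or more, 9 of 17 members and 922 of 1884 of all genes were higher. Below that level, 7 of 13 members and 3171 of 10562 of all genes were higher. The members' median of log2((mutant RPKM + 1)/(control RPKM + 1)) was 0.08 over the 30 genes and -0.18 over all genes. At 5 RPKM or more it was 0.13 for the members and -0.10 for all genes. Without the 9 members that overlap another gene of the table, whose reads an unstranded count cannot separate, 10 of 21 were higher and the median was -0.0089.

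**Figure D1:**
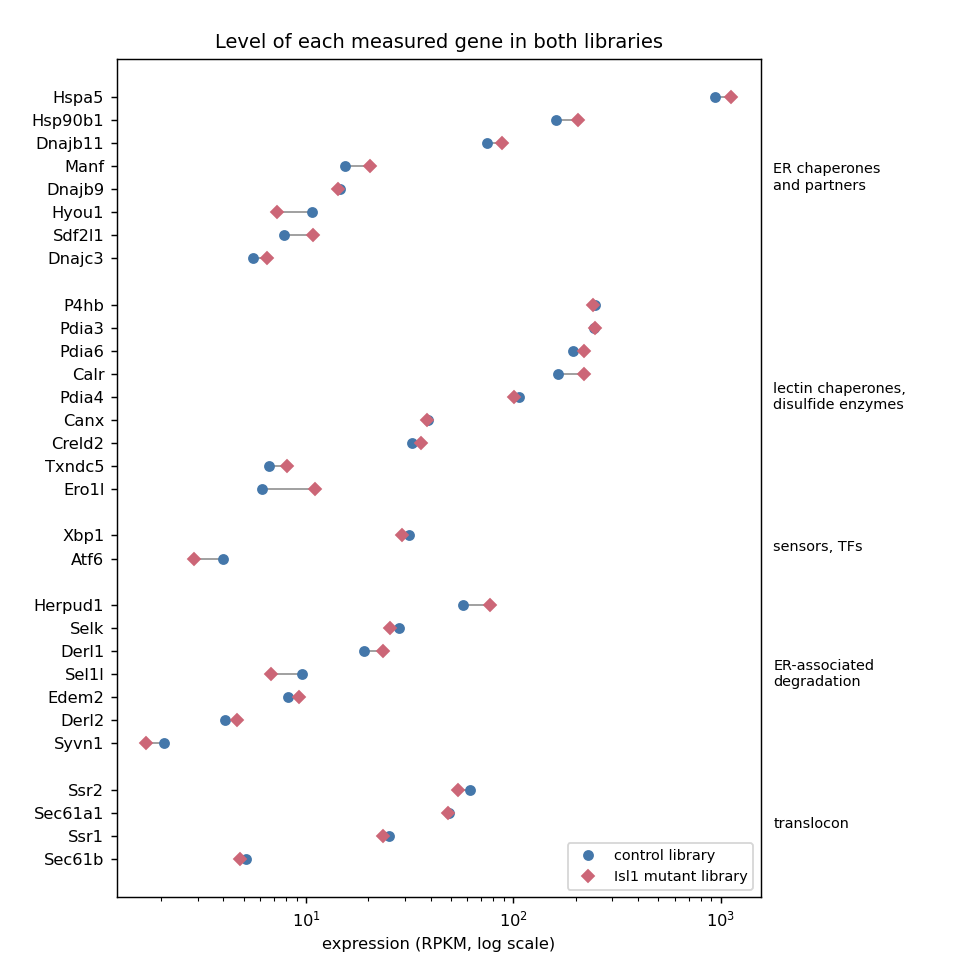
Expression of the 30 measured ER chaperone and UPR genes in RPKM on a log axis, by role, with a circle for the control library and a diamond for the Isl1 mutant library (1 library each, no error bar). Levels run from about 2.08 RPKM for Syvn1 to 939 RPKM for Hspa5 in the control library, and the widest gap is that of Ero1l, from 6.15 to 11.01 RPKM.

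The size rule counted a gene when it reached 5 RPKM in at least 1 library and differed by 1.5-fold or more on the log2(RPKM + 1) scale, which understates the change of low genes. Of the 27 members at that level, Ero1l was the only one at least 1.5-fold higher and 0 were at least 1.5-fold lower. Over all 6343 genes at that level these shares were 3.77% and 11.8%. At 2-fold there were 0 members in either direction, beside 1.01% of all genes higher and 2.68% lower. The higher count of 1 in 27 is near the background, and with 27 genes the counts of 0 at 2-fold are not far from it. The split of all genes depends on scaling: as deposited 989 genes were past 1.5-fold and 24.2% of them higher. The higher share was 34.7% of 901 genes with the median ratio set to 0, 43.7% of 927 with equal upper quartiles and 44.8% of 805 with the level and length trend removed.

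Counting error alone was small for these genes. Each member had at least 359 reads in each library, the fewest being those of Sec61b. For Hspa5 the read number found would need more exon bases than the gene spans. That number is therefore too large, and the Hspa5 interval is too narrow. The interval lay above 1 for 16 members and below 1 for 10, beside 24.6% and 57.2% of all genes. Such an interval compares these 2 libraries, not the genotypes. It included 1 for Canx, Dnajb9, Sec61b and Sec61a1.

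The ER chaperones and their partners came first. Hspa5 (chromosome 2, 34627490 to 34632051, mm9) encodes BiP, the Hsp70 chaperone of the ER, which also holds the UPR sensors inactive. It had 939 RPKM in control cells and 1123 RPKM in mutant cells, 1.20-fold higher (interval 1.19 to 1.20). Hspa5 was the most abundant member, with rank 24 among all genes in control cells and rank 27 in mutant cells, and made up 36.5% and 38.6% of the members' summed RPKM. Hsp90b1, the gene of the ER Hsp90 chaperone GRP94, went from 161 to 205 RPKM, 1.27-fold higher (interval 1.26 to 1.28). It overlaps Gm15344 on the same strand, at 215 and 251 RPKM, and 1810014B01Rik on the opposite strand, at 49.6 and 60.9 RPKM. The division of reads between these genes is therefore uncertain.

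The partners of BiP did not move as 1 group. Sdf2l1, which forms a complex with ER chaperones, went from 7.79 to 10.8 RPKM, 1.38-fold higher (interval 1.27 to 1.501). Manf, the gene of a small ER-resident and secreted trophic factor, went from 15.4 to 20.4 RPKM, 1.33-fold higher, and overlaps Rbm15b and Vprbp, at 1.58 and 1.66 RPKM and at 4.18 and 2.28 RPKM. The J-domain partners Dnajb11 (74.8 to 87.9 RPKM) and Dnajc3 (5.52 to 6.49 RPKM), which bring unfolded proteins to BiP, had ratios of 1.18 and 1.17. A further J-domain gene, Dnajb9, stood at 14.5 and 14.3 RPKM, and its interval of 0.901 to 1.07 included no difference. Hyou1 (chromosome 9, 44187573 to 44200452), the gene of the large Hsp70-like chaperone GRP170 that recharges BiP with nucleotide, went the other way. It had 10.7 RPKM in control and 7.25 RPKM in mutant cells, 1.48-fold lower with an interval of 1.42 to 1.53. This gene overlaps Mfrp on the same strand, at 6.94 and 6.43 RPKM. Of the 8 genes in this group 6 were higher, the median was 0.24 on the log2(RPKM + 1) scale, and the summed level went from 1229 to 1474 RPKM.

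**Figure D2:**
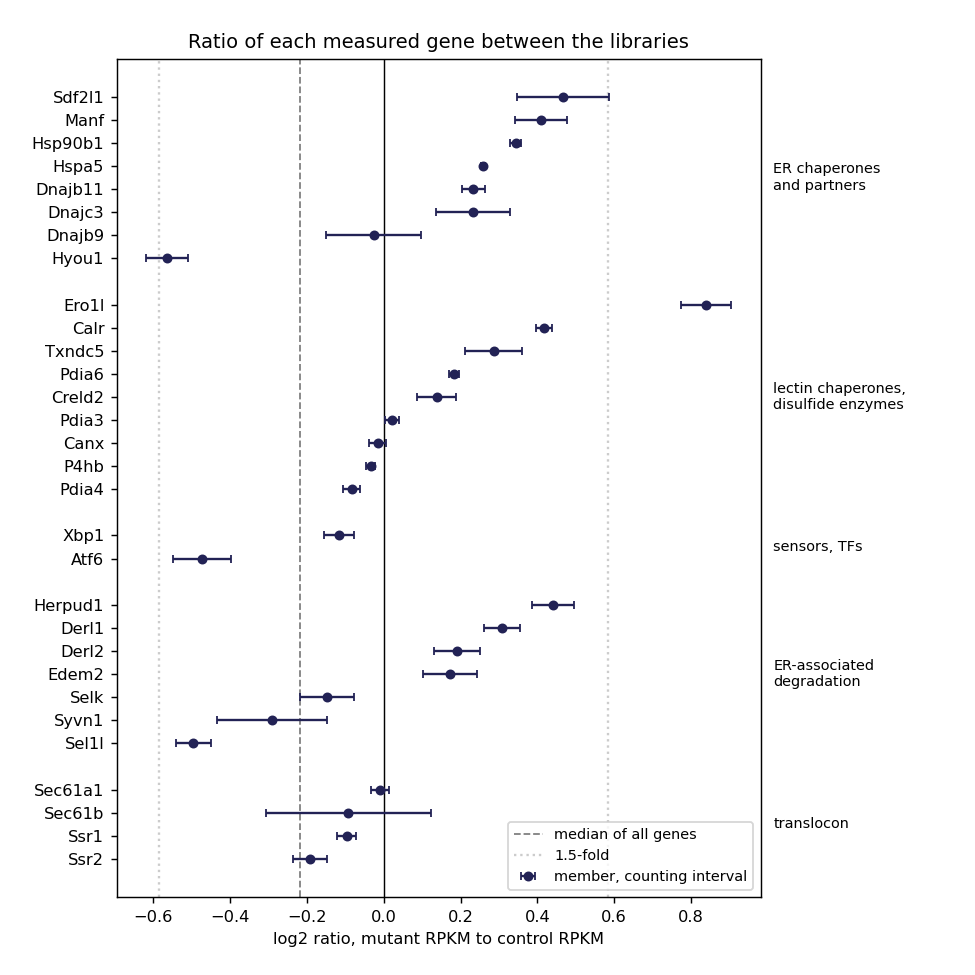
Log2 ratio of mutant to control RPKM for each measured gene, by role, with the exact 95% counting interval as a bar, the median of all genes (-0.22) as a dashed line and 1.5-fold as dotted lines. Ero1l, at 0.84, is the only gene past the right dotted line, and Hyou1, at -0.56, is the lowest and lies just inside the left one.

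Lectin chaperones and disulfide enzymes were mostly abundant genes with near-equal values. Calr (chromosome 8, 87365749 to 87370833) encodes calreticulin, a calcium-binding lectin chaperone of the ER lumen. It went from 163 to 218 RPKM, 1.34-fold higher (interval 1.32 to 1.35). Canx, the gene of its membrane-bound relative calnexin, stood at 38.8 and 38.4 RPKM, with an interval of 0.975 to 1.004. The 2 lectin chaperones thus had different ratios while both promoters held an ERSE.

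The protein disulfide isomerases form and rearrange disulfide bonds. Among them Pdia6 was 1.14-fold higher (194 to 220.0 RPKM), Pdia3, the partner of both lectin chaperones, stood at 244 and 248 RPKM, P4hb at 248 and 243 RPKM and Pdia4 at 107 and 101 RPKM. Pdia3, Pdia4 and Pdia6 overlap other genes of the table (Catsper2 and Mtap1a, Mir704, and Atp6v1c2). Txndc5, a thioredoxin-domain relative, went from 6.66 to 8.12 RPKM, overlapping Bmp6, and Creld2, a UPR-induced ER protein gene, from 32.5 to 35.7 RPKM. The intervals of Pdia3 and P4hb left out 1, although the ratios were only 1.02 and 0.977. Of the 9 genes in this group 6 were higher as deposited, with a median of 0.13. Canx and P4hb were also higher with the median ratio set to 0, and Canx, P4hb and Pdia4 with equal upper quartiles.

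Ero1l (chromosome 14, 45902879 to 45938237) had the highest ratio of all members. It encodes the oxidase that passes oxidising power to the disulfide isomerases, and it is also known as a hypoxia-induced gene. Control cells had 6.15 RPKM and mutant cells 11.01 RPKM, 1.79-fold higher (interval 1.71 to 1.87, from at least 2896 and 5600 reads). This placed it above 98.5% of the genes between 5 and 20 RPKM, its level range. In the same libraries 10 of 11 measured hypoxia response genes were higher, and by the size rule 7 of the 9 at 5 RPKM were at least 1.5-fold higher. The summed level of the list went from 1139 to 2319 RPKM, led by Ldha at 550 and 1135 RPKM. The part of this in the Ero1l value was not tested.

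The sensors and transcription factors had lower values. Atf6 (chromosome 1, 172634588 to 172797902), which encodes a membrane-bound factor that is cut free under stress, had 3.99 and 2.88 RPKM, a 1.39-fold lower value (interval 1.32 to 1.46). The gene lies under 5 RPKM, where the median log2 ratio of all genes was -0.43, beside -0.47 for Atf6. Xbp1, the messenger RNA that IRE1 splices, stood at 31.3 and 28.9 RPKM, 1.08-fold lower as deposited and higher when the upper quartiles of both libraries were made equal. The other sensor genes, Ern1 and Eif2ak3, were not measured.

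Genes of ER-associated degradation, which export misfolded proteins and mark them with ubiquitin, went in both directions. Herpud1, a UPR-induced scaffold of this machinery (chromosome 8, 96910338 to 96919277), went from 57.0 to 77.4 RPKM, 1.36-fold higher (interval 1.31 to 1.41). Derl1 and Derl2, genes of membrane proteins of the export channel, went from 19.1 to 23.6 RPKM and from 4.06 to 4.64 RPKM, ratios of 1.24 and 1.14. Edem2, a gene of glycan trimming, had a ratio of 1.13 (8.23 to 9.27 RPKM). Sel1l (chromosome 12, 93044483 to 93087597), which encodes the adaptor of the ubiquitin ligase HRD1, had 9.54 and 6.77 RPKM, 1.41-fold lower with an interval of 1.37 to 1.46. Syvn1, the gene of HRD1 itself, stood at 2.08 and 1.70 RPKM, 1.22-fold lower, and overlaps the more abundant Mrpl49 (11.8 and 13.4 RPKM). Derl2 overlaps Mis12 (7.68 and 6.12 RPKM). Selk, a selenoprotein gene, stood at 28.05 and 25.3 RPKM. Removing the level and length trend took the log2 ratio of Sel1l from -0.50 to -0.24 and that of Syvn1 from -0.29 to -0.010, and Syvn1 lies under 5 RPKM, where the median of all genes was -0.43. Of the 7 measured genes 4 had higher values and the group median was 0.15, and Edem1 and Derl3 were not measured.

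The translocon genes had slightly lower values as deposited. Ssr2, a subunit gene of the translocon-associated complex, had 61.5 and 53.9 RPKM, 1.14-fold lower with an interval of 1.11 to 1.18. Its partner Ssr1 stood at 24.99 and 23.4 RPKM, and the channel genes Sec61a1 and Sec61b at 48.8 and 48.5 RPKM and at 5.15 and 4.83 RPKM. All 4 were lower, with a median of -0.08, but Ssr1, Sec61a1 and Sec61b were higher with equal upper quartiles or with the level and length trend removed, and Sec61a1 also with the median ratio set to 0. The direction of these genes therefore depends on the scaling, apart from that of Ssr2 in the scalings run.

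The ratio moved with expression level over all genes, and the members were read against that. Genes with a geometric mean of 100 RPKM or more had a median log2 ratio (here without the added 1) of 0.09, and the 7 members there of 0.18. Between 20 and 100 RPKM it was -0.02 for all genes and -0.01 for 10 members. Between 5 and 20 RPKM it was -0.14 for all genes and 0.23 for 9 members, 7 of which lay above the median of all genes. Under 5 RPKM the 4 members had a median of -0.19 beside -0.43. In the highest range 4 of 7 members lay above the median of all genes, among them Calr at 0.42 and Hsp90b1 at 0.34, while P4hb and Pdia4 lay below it. Across the 30 members the ratio and the level had a Spearman correlation of 0.22, beside 0.33 across all genes, and the genes of each share both libraries.

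**Figure D3:**
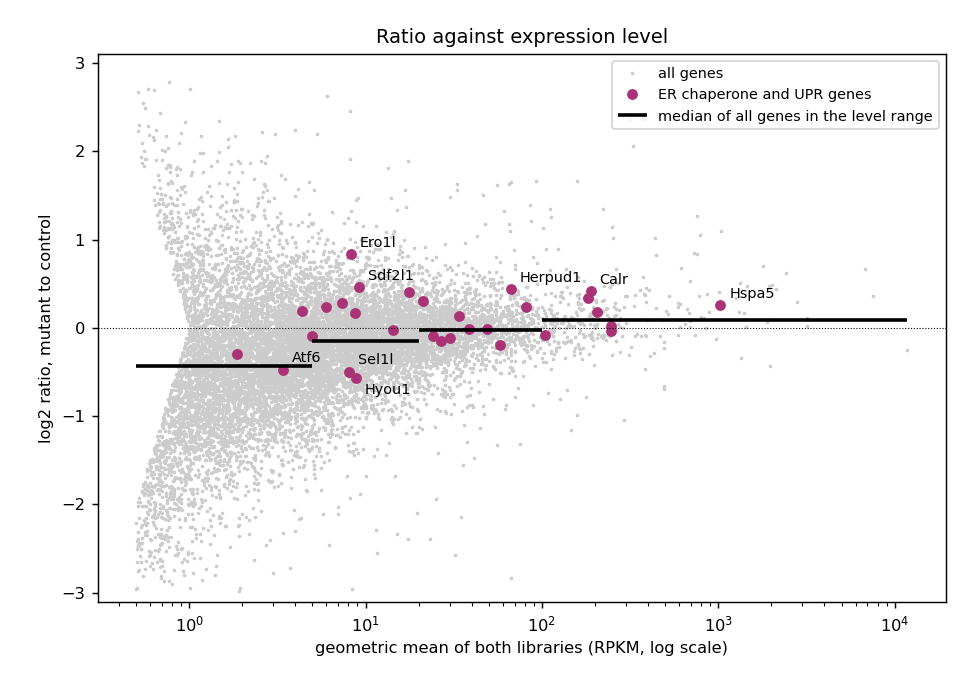
Log2 ratio of mutant to control against the geometric mean of both values in RPKM (log axis), for 12158 genes in grey (288 lie outside the axes) and the 30 ER chaperone and UPR genes in purple, with the median of all genes in 4 level ranges as black bars. The grey median climbs from -0.43 under 5 RPKM to 0.09 at 100 RPKM or more, and the purple points spread over a narrower band than the grey ones.

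Members with and without the promoter elements were set side by side. Over all 8330 genes of the table with a promoter entry, 32.9% were higher, with a median log2 ratio of -0.21. Of the 10 measured members with an ERSE or ERSE-II, 8 were higher, with a median log2 ratio of 0.23 and a range from -0.29 (Syvn1) to 0.44 (Herpud1). Of the 14 measured members with a promoter entry and neither element, 6 were higher, with a median of -0.03 and a range from -0.50 (Sel1l) to 0.84 (Ero1l). The members with an element were also the more abundant ones, with a median level of 73.8 RPKM beside 11.8 RPKM. The ranges overlap over most of their length, and the part of level in the difference was not tested. Canx and Syvn1 were the 2 members with an ERSE and a lower value as deposited. Canx had an interval that included 1 and was higher with the median ratio set to 0 or with equal upper quartiles. Syvn1 was lower in each scaling run. Outside the members, 14 other genes of the table held an element, and 4 of them were higher, with a median of -0.38 at a median level of 3.06 RPKM.

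Other genes of the pathway were taken from lists of named genes. Of 13 genes of the PERK and ATF4 arm, which raises amino acid supply, 11 were measured, 6 of them higher, and 1 was at least 1.5-fold higher and 1 lower by the size rule. Atf4, the central factor, given after its values were seen, stood at 25.9 and 29.4 RPKM. Mthfd2, a gene of mitochondrial folate metabolism, went from 8.33 to 15.5 RPKM, 1.86-fold higher, and Asns, the asparagine synthetase gene, from 13.9 to 18.7 RPKM. Ddit3, the gene of the stress factor CHOP, went from 4.62 to 6.13 RPKM and overlaps Mars on the opposite strand. Ppp1r15b, which encodes a subunit of the phosphatase that reverses PERK signalling, was 1.74-fold lower (6.17 to 3.55 RPKM). Atf3, the most abundant gene of the list, was also lower (306 to 252 RPKM). So were Ppp1r15a (83.0 to 80.4 RPKM), Eif2s1 (34.9 to 31.9 RPKM) and Sesn2 (2.69 to 2.01 RPKM), given like Atf3 after their values were seen. The summed level of the list went from 487 to 446 RPKM. The highest ratios in this list, named after their values were seen, were those of Trib3 (0.656 to 3.31 RPKM, 5.05-fold, interval 4.23 to 6.06) and Slc7a11 (0.397 to 2.60 RPKM, 6.54-fold, interval 5.82 to 7.37), which lie under the level of 5 RPKM. Of 10 partners of ATF6 and IRE1, 4 were higher. Mbtps1, the gene of the protease that cuts ATF6 free, was 1.62-fold lower (28.5 to 17.6 RPKM), Creb3l1, a related membrane-bound factor gene, 1.79-fold lower (5.41 to 3.02 RPKM), and Atf6b 1.25-fold lower, while Wfs1, an ER membrane protein gene, was 1.47-fold higher (6.44 to 9.45 RPKM).

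Of 26 further ER folding enzymes 24 were measured, 10 higher and 14 lower, with a median of -0.07. Pdia5, a disulfide isomerase gene, went from 10.6 to 15.95 RPKM and Fkbp2, a prolyl isomerase gene, from 3.94 to 6.62 RPKM, 1.68-fold higher. Dnajc10, the gene of a disulfide reductase that works with BiP in degradation, was 1.64-fold lower (36.1 to 22 RPKM), and Tmx4 1.63-fold lower. Txndc11, a thioredoxin-domain gene under 5 RPKM that was named after its values were seen, had 2.24 and 0.499 RPKM, a log2 ratio of -2.17. Of 14 genes of N-glycosylation and glycan trimming 13 were measured, 7 higher, and 0 were past 1.5-fold. Uggt1, the gene of the folding sensor of the calnexin cycle, was 1.43-fold lower (6.29 to 4.39 RPKM) and Stt3b 1.27-fold lower, while the oligosaccharyltransferase genes Dad1 and Krtcap2 were 1.31-fold and 1.34-fold higher.

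The remaining lists had mostly lower values. Of 22 further degradation genes 19 were measured. Of these 5 were higher, the median was -0.28, and by the size rule 0 of the 13 at 5 RPKM were past 1.5-fold. Edem3 (2.13 to 1.09 RPKM) and Ube2j2 (4.45 to 2.40 RPKM), under that level and named after their values were seen, were 1.95-fold and 1.85-fold lower. At that level Ngly1, Faf2, March6 and Ubxn4 were 1.37-fold, 1.31-fold, 1.36-fold and 1.24-fold lower. Of 20 further genes of protein import 5 were higher, with a median of -0.18, and Srp72, a subunit gene of the signal recognition particle, went from 22.1 to 14.8 RPKM, Ssr4 from 6.45 to 4.78 RPKM, Srpr from 28.3 to 21.2 RPKM and Sec61a2 from 20.6 to 17.0 RPKM. Of 25 genes of transport between ER and Golgi 6 were higher, with a median of -0.13. The median over all genes was -0.18, so the first of these lists lies below it, the second at it and the third slightly above it. Over the genes that reach 5 RPKM the median was -0.10, and each of these list medians lies below that. In the lists, 13 of 19, 17 of 20 and 22 of 25 measured genes reach that level. Kdelr1, the gene of a receptor that returns escaped ER chaperones from the Golgi, had 20.3 and 9.85 RPKM, 2.06-fold lower with an interval of 1.95 to 2.17 and above only 2.55% of the genes between 5 and 20 RPKM. The other receptor genes, Kdelr2 (30.9 and 27.9 RPKM) and Kdelr3 (12.1 and 11.1 RPKM), given after their values were seen, were 1.11-fold and 1.09-fold lower. Sec24d and Sec23b, genes of the coat of transport vesicles, were 1.44-fold and 1.41-fold lower, and Tmed10, a cargo receptor gene, 1.40-fold higher (44.7 to 62.5 RPKM).

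**Figure D4:**
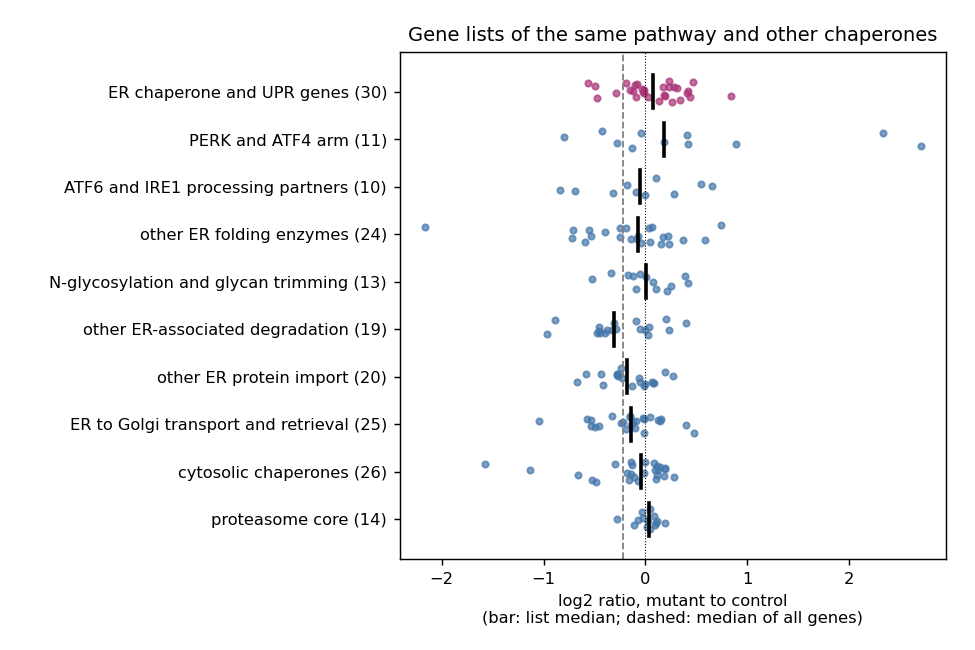
Log2 ratio of mutant to control for the measured genes of each list (number in brackets), 1 point per gene, with the list median as a bar and the median of all genes (-0.22) as a dashed line. The ER chaperone and UPR genes lie between -0.56 and 0.84, the 2 points far to the right are Trib3 and Slc7a11, and the point far to the left is Txndc11.

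Cytosolic chaperones and the proteasome core were compared as the nearest gene groups outside the ER, without a test. Of 26 cytosolic chaperone genes 11 were higher, with a median of -0.04, and 3 were at least 1.5-fold lower and 0 higher. Over all genes at 5 RPKM these shares were 11.8% and 3.77%, so the lower count of 3 in 26 is near the background. Those 3 were Hspa4 (7.22 to 2.42 RPKM), Hspb1 (10.85 to 4.96 RPKM) and Hspa1b (15.2 to 9.64 RPKM), named after their values were seen. Of 14 proteasome genes 9 were higher, with a median of 0.04, and each lay within 1.25-fold. Within 1.25-fold were also 21 of the 30 ER genes (70%) and 21 of the 26 cytosolic chaperone genes (80.8%). Over all genes this share was 43.9%, and 57.8% over those that reach 5 RPKM. The summed level of the ER genes went from 2573 to 2908 RPKM, a ratio of 1.13, and from 1634 to 1785 RPKM without Hspa5, a ratio of 1.09. That of the cytosolic chaperones went from 4352 to 4516 RPKM, a ratio of 1.04. The sum over all genes went from 249182 to 259756 RPKM, also a ratio of 1.04.

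Markers of other cells moved between the libraries beside all of these genes. Fibroblast and mesenchyme markers, from cells that secrete much collagen, were lower in 11 of 11 cases, and their summed level went from 538 to 235 RPKM, led by Col1a1 at 222 and 112 RPKM. Erythroid markers were lower in 11 of 11 (416 to 71.9 RPKM, led by Hbb-y at 178 and 24.9 RPKM) and macrophage markers in 8 of 8 measured (43.8 to 8.19 RPKM, led by Laptm5 at 23.2 and 2.99 RPKM). Endothelial markers were lower in 8 of 8 measured (33.6 to 18.6 RPKM, led by Egfl7 at 8.94 and 7.04 RPKM), and hepatocyte markers in 4 of 5 (16.9 to 5.63 RPKM, led by Afp at 10.6 and 2.98 RPKM). None of the measured markers stood at 0 in either library, but neither did any other gene of the table. This therefore does not show which cells were present. Heart muscle markers were higher in 5 of 7 (13110.5 to 18467.5 RPKM). Early response genes, which handling of tissue induces, were lower in 10 of 11 (1584 to 1115 RPKM, led by Fos at 628 and 390 RPKM). The part of these cells and of handling in the values of the ER genes was not tested.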

How the data were processed

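The build mm9 and the tools Bowtie2, TopHat2, FastQC and Trim Galore are named, per the submitters' processing notes, without roles or versions. What produced the gene values was not given in the sources used here. For each gene and library the authors deposited 1 value, without naming the unit. These deposited values were read as RPKM, made by the authors on constitutive exons per the file headers, because of their steps: in 288 small RNA genes the value times the length gave whole reads within 0.01 in 288 control and 280 mutant cases. The library totals used there were chosen so that most of these genes gave whole reads, so that fit does not check the totals. The log2 fold change and signed fold score of the authors follow from the deposited values (largest log2 difference 1.89e-07) and were not used further. Every gene in the table reaches 1 RPKM in at least 1 library, so members under that level are not seen.

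For each gene the smallest whole reads that give both RPKM values were taken, found for 99.2% of genes and all 30 measured members. The true number can be a multiple, so intervals can be wider than needed. For abundant genes the number found can also be too large, as it is for Hspa5, and the interval is then too narrow. They are Clopper-Pearson 95% intervals. The highest entry was kept for each of 12446 symbols. List medians and the size rule use log2(RPKM + 1). The kit is not stated to keep strand. Overlaps are named for the members, but genes of the other lists, such as Srpr, Sec61a2, Sec24d and Txndc11, also overlap other genes. Genes named outside the members are, for each pathway list, the 4 with the largest difference at 5 RPKM or more, and for each marker list its most abundant gene; others are marked where they appear. RefSeq promoters were searched by their letters alone. The members and lists were chosen with earlier results of these data known. Alternatives were other scalings, pseudocounts and floors, the mean, and leaving out overlapping members; 3 scalings of single members were added after seeing the data. Python 3.11.15, numpy 2.4.6 and scipy 1.17.1 were used, and the scripts were tested on simulated data.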

Additional observations from a re-analysis of the deposited data

How the results depend on the processing

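No paired analysis was possible because each group has 1 library, and for the same reason no library could be left out. Ero1l was the only member past 1.5-fold in every setting except a pseudocount of 5, where 0 were, and on the log2(RPKM + 1) scale 0 members were past 2-fold in each setting run. The log2 ratio of Ero1l without the added 1 was 0.84 as deposited and 1.02 with the level and length trend removed. The members' median of 0.08 was 0.15 with the median ratio set to 0, 0.20 with equal upper quartiles, 0.13 at 5 RPKM or more and -0.0089 without overlapping members, where 10 of 21 were higher. These scalings raise every log2 ratio by 0.07 and 0.12, and 20 and 24 of 30 members were then higher, beside 38.6% and 42.7% of all genes. With the level and length trend removed 19 members were higher and 10 lower. That correction sets all genes to 6209 higher and 6209 lower by construction. As deposited, without that correction, 2418 of 6343 genes at 5 RPKM or more were higher. For all genes, 989 past 1.5-fold became 418 with a pseudocount of 5, 2722 with no floor and 492 with a floor of 10 RPKM, and 234 past 2-fold became 72, 628 and 119. The split past 2-fold was 27.4% higher as deposited and 35.6%, 43.3% and 43.3% in the order of scalings given above. A floor or a larger pseudocount tests fewer genes or shrinks low ones; the cause of the other shifts was not tested. The members had at least 359 reads in each library, and with 1 library per genotype replicate error is not known.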

Other observations

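Beside the 34 genes, 14 other genes of the table held an ERSE or ERSE-II in their RefSeq promoter. Of these 4 were higher in the mutant library and 10 lower, with a median log2 ratio of -0.38 at a median level of 3.06 RPKM, beside -0.21 over all 8330 genes of the table with a promoter entry. Nucb1, which encodes a calcium-binding protein of the Golgi, stood at 39.6 and 35.3 RPKM, and Alg12, a mannosyltransferase gene of N-glycan synthesis in the ER, at 1.54 and 2.45 RPKM. Rbm39 and Hnrnpa3, genes of RNA-binding proteins, stood at 39.0 and 25.9 RPKM and at 25.8 and 30.4 RPKM. Krtcap2, listed above with the N-glycosylation genes, stood at 6.82 and 9.13 RPKM. Apart from Krtcap2, these genes were named after their values were seen, and no test was made.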
